A study of Mus musculus with 6 samples.

Results

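Il10 and the protein-coding genes that lie within 250 kb of it on mouse chromosome 1 were followed in lung group 2 innate lymphoid cells (ILC2s) sorted by whether they made IL-10. The 9 members, Fcmr, Il24, Il19, Il10, Mapkapk2, Dyrk3, Eif2d, Rassf5 and Ikbke in chromosomal order, were taken by name and position from the 21017 genes of the deposited count table, and each had 1 row. There were 3 libraries of IL-10-producing ILC2s and 3 of IL-10-negative ILC2s. Donor mice were C57BL/6J animals of the genotype IL-10GFP, 8 weeks old, in which a green fluorescent protein reports Il10, and the construction of the reporter is not described. Both populations shared the treatment, which was IL-33 given 3 times by the nose (0.5 µg per mouse) and then, after a first sort of lung ILC2s, 48 h of culture with the cytokines IL-2, IL-4 and IL-7 (10 ng/mL of each). The cells are labelled as freshly sorted, but the protocol places the sort by IL-10 after this culture. Separate mice or cultures are not recorded for the libraries, and p-values therefore measure the spread between libraries, which may be technical.

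IL-10 is an anti-inflammatory cytokine that signals through the receptor chains IL10RA and IL10RB, the kinases JAK1 and TYK2, and the transcription factor STAT3. Its gene lies in a cytokine cluster with Il19 and Il24, which encode related cytokines that use receptors of the IL-20 type. ILC2s are tissue lymphocytes without rearranged antigen receptors that make mainly IL-5 and IL-13, and a share of them makes IL-10 when activated. The genes on the other side of Il10 are not cytokine genes. They encode a p38-activated kinase, a dual-specificity kinase, a translation factor, a RAS-association domain protein and an IKK-related kinase.

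The IL-10-producing libraries held 47012941 to 69511433 counts and the IL-10-negative libraries 51218587 to 57989729. Levels are counts scaled to the library total (CPM) with TMM factors. Markers are called higher or lower by the test described below, by which 17.1% of all genes tested were higher and 18.6% lower. All 13 ILC2 markers were detected (5 higher, 6 lower), with a summed level of 16200 to 16300 CPM in IL-10-producing libraries, against 15400 to 15500 CPM in IL-10-negative libraries. Gata3, Rora and Il1rl1 were among the 6 that were lower, with log2 fold changes of -0.37 to -0.23. The most abundant gene of the list, Il2ra, was higher (5830 ± 47.4 CPM in IL-10-producing libraries, against 4210 ± 38.7 CPM in IL-10-negative ones). Markers of T cells summed to 125 to 127 CPM in IL-10-producing libraries, against 203 to 213 CPM in IL-10-negative libraries, and 12 of 12 were lower in IL-10-producing libraries. Trbc1, Trbc2 and Lat carry most of that sum with log2 fold changes of -0.38 to -0.17, whereas the median log2 fold change of the list was -2.67 and Cd8a stood at 0.0594 ± 0.0043 CPM in IL-10-producing libraries, against 15.3 ± 0.408 CPM in IL-10-negative ones. Markers of mast cells and basophils summed to 12.7 to 14.6 CPM in IL-10-producing libraries, against 69.5 to 74.5 CPM in IL-10-negative libraries, with 8 of 8 lower. Sums for neutrophils were 1.43 to 2.10 CPM in IL-10-producing libraries, against 34.6 to 38.1 CPM in IL-10-negative ones (3 of 4 tested lower). Most of the sum in IL-10-negative libraries came from the granule gene Mpo (0.954 ± 0.282 CPM in IL-10-producing libraries, against 30.6 ± 1.64 CPM in IL-10-negative ones). Ltf was not called, and Ly6g, Camp and S100a8 were barely detected in either group and not tested. For NK cells the sums averaged 6.40 CPM in IL-10-producing libraries, against 11.5 CPM in IL-10-negative ones (3 of 4 lower, 1 higher, Ncr1 and Klrd1 at 0 in all IL-10-producing libraries). The gene that rose, Prf1, carries most of the NK sum (6.24 ± 0.536 CPM in IL-10-producing libraries, against 4.79 ± 0.298 CPM in IL-10-negative ones), and the 3 that fell had log2 fold changes of -5.80 to -4.91. Macrophage and dendritic cell markers summed to 62.5 to 64.4 CPM in IL-10-producing libraries, against 67.0 to 69.7 CPM in IL-10-negative ones (4 of 9 lower, 1 higher, most of the sum from Xcr1). Markers of lung structural cells summed to 119 to 125 CPM in IL-10-producing libraries, against 105 to 113 CPM in IL-10-negative ones (2 of 4 lower, 1 higher). Most of this sum came from the gene that rose, Pecam1 (106 ± 3.49 CPM in IL-10-producing libraries, against 86.6 ± 3.77 CPM in IL-10-negative ones). Sftpb, Col1a2 and Pdgfra of this list were barely detected and not tested. The part of these other cells in the results below was not tested. In bulk libraries, fewer cells of a type and less RNA per cell cannot be told apart.

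On GRCm38 (mm10), Il10 (ENSMUSG00000016529.5) occupies chr1:131019845-131024974 on the plus strand, with 5 exons in its single GENCODE M21 transcript. Before it lie Il19 (ENSMUSG00000016524.12, chr1:130932656-130940115, minus strand, 79.7 kb away), Il24 (ENSMUSG00000026420.16, chr1:130882074-130887454, minus strand, 132.4 kb away) and Fcmr (ENSMUSG00000042474.6, chr1:130865669-130880791, plus strand, 139.1 kb away). After it come Mapkapk2 (ENSMUSG00000016528.10, chr1:131053700-131097826, minus strand, 28.7 kb away), Dyrk3 (ENSMUSG00000016526.8, chr1:131127455-131138340, minus strand, 102.5 kb away) and Eif2d (ENSMUSG00000026427.16, chr1:131153181-131187658, plus strand, 128.2 kb away). Rassf5 (ENSMUSG00000026430.16, chr1:131176410-131245258, minus strand) and Ikbke (ENSMUSG00000042349.13, chr1:131254343-131279606, minus strand) lie 151.4 and 229.4 kb from Il10. GENCODE M21 places 12 protein-coding genes within 250 kb of Il10, counting Il10, of which these 9 had a row and the other 3 were not analysed here.

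Neighbours share ground in several places. Fcmr and Il24 point towards each other, with 1282 bases between their 3′ ends. Eif2d and Rassf5 overlap by 11249 bases on opposite strands and share 78 exonic bases. Ikbke shares 159 and 65 exonic bases with the antisense genes Gm28914 and Gm28913, which had at most 13 counts in any library. The strand setting of the counting is not given in the sources used here, and reads in shared bases cannot be assigned to either gene.

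Promoter windows of 7 of the 9 members were matched by symbol in RefSeq (GRCm38.p6), each running from 250 bases before to 50 bases after the gene start. The 4 shown belong to the neighbours whose change was largest among those with a window, all higher in IL-10-producing cells except Ikbke, and capitals mark matches to any of 10 motifs searched on both strands.
Fcmr (chr1:130865527-130865826, plus strand): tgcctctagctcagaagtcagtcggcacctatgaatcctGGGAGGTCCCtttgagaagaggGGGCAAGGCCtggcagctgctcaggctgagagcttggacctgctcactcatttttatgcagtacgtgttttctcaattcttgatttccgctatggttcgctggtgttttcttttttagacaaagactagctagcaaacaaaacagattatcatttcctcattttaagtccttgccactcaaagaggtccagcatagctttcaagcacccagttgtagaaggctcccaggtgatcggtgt
Dyrk3 (chr1:131138185-131138484, minus strand): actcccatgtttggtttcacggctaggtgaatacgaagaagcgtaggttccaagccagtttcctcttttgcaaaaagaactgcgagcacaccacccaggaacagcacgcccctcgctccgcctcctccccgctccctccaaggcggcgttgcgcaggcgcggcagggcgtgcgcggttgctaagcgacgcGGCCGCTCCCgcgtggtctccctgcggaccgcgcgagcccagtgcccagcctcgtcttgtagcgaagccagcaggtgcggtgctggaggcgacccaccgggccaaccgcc
Mapkapk2 (chr1:131097794-131098093, minus strand): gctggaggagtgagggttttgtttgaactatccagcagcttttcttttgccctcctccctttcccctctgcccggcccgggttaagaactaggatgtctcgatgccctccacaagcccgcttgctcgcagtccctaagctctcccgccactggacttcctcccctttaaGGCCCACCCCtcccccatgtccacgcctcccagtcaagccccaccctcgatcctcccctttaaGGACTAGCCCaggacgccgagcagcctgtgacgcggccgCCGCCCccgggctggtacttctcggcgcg
Ikbke (chr1:131279514-131279813, minus strand): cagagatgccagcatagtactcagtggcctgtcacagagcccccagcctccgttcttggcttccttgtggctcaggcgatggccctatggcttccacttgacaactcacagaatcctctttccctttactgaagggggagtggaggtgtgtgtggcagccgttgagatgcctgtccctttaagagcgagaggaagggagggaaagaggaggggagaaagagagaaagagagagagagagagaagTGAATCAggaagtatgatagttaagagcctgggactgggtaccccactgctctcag

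The motifs were AP-1 (TGANTCA), CRE (TGACGT), a MAF half-site (TGCTGA), STAT (TTC and GAA with any 3 bases between), NF-kB (GGG and CC with any 5 bases between), NFIL3 (TTA and TAA with any 2 bases between), the letters AGATAA for GATA factors, IRF (GAAA and GAAA with any 2 bases between), the letters TATAAA for the TATA box, and the GC box (GGGCGG). The loose NF-kB pattern matched at 2 places in the Fcmr window, 2 in that of Mapkapk2 and 1 in that of Dyrk3, and it occurs in 50.8% of 32851 mouse promoter windows of the same length. In the Ikbke window the only match was to AP-1, found in 7.81% of all windows. The Mapkapk2 window also held a GC box (35.7% of all windows). By composition, the Dyrk3 and Mapkapk2 windows had 66.3% and 63.3% G and C with 32 and 18 CpG sites, the Ikbke and Fcmr windows 54.0% and 47.3% with 4 and 5, and the median of all windows was 52.7% with 7. A match is a run of letters and not a bound site.

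Of the 8 neighbours of Il10, 7 were tested and all 7 differed between the populations, with 6 higher and 1 lower in cells that made IL-10. Il24 was 3.03-fold and Fcmr 1.87-fold higher. Mapkapk2, Dyrk3, Eif2d and Rassf5 were 1.12-fold to 1.31-fold higher, and Ikbke fell to 0.835 of its level in IL-10-negative cells. Il19 was near the limit of detection and was not tested. The test was edgeR's quasi-likelihood F test, with p-values adjusted by Benjamini and Hochberg over 16654 genes and a threshold of 0.05. By this rule 35.7% of all genes changed, 17.1% higher and 18.6% lower. Among the 10548 genes of at least 5 CPM in the higher group, the level reached by all 7, 47.2% changed. The median log2 fold change was 0.31 over the 7 neighbours and -0.004 over all genes. With library size as the only scaling, 36% of all genes changed, 13.2% higher and 22.8% lower. In each of 14 alternative analyses without a minimum fold, the same 7 neighbours passed in the same direction. The share of all genes called there was 35.8% with DESeq2 size factors, 28.3% without a filter and 43.2% with at least 50 counts in 3 libraries (21.9% lower). It was 26.6% with DESeq2, 35.4% with limma-voom, 42.3% with limma on the normalized table, 34.9% with the replicate number as a block, and 30.7% to 32.3% when 1 library was left out (30.7%, 31.8% and 32.3% without each IL-10-producing library, 31.4%, 31.5% and 30.9% without each IL-10-negative library).

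**Figure D1:**
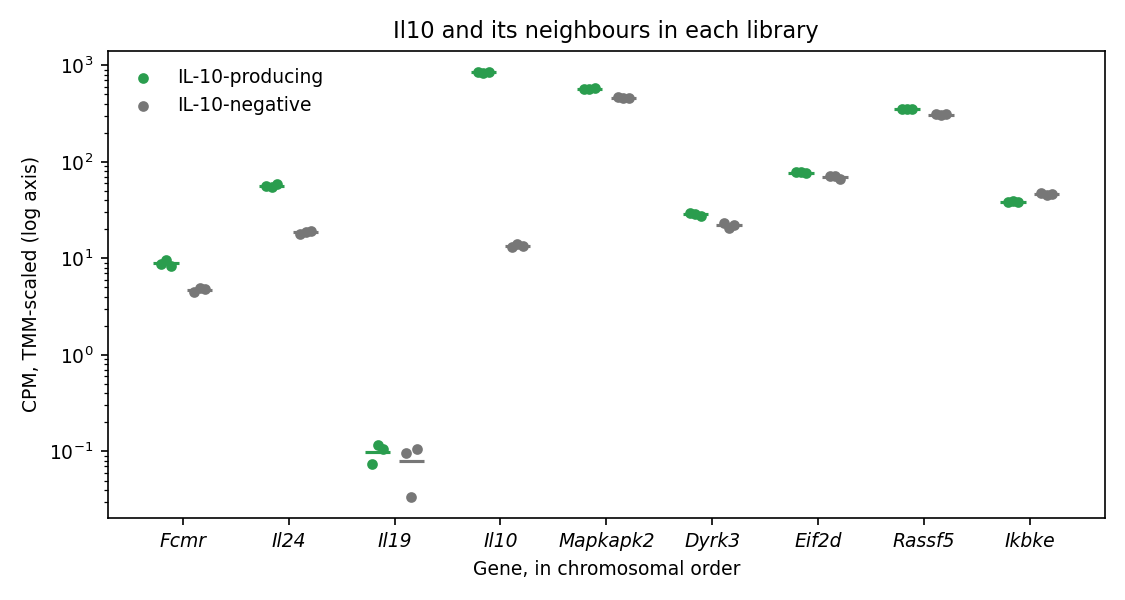
CPM (TMM-scaled, log axis) of the 9 genes in each library, in chromosomal order, with IL-10-producing libraries in green on the left, IL-10-negative libraries in grey on the right and a bar at each mean (n = 3). Il10 stands between 840 and 854 CPM in IL-10-producing and between 13.0 and 14.2 CPM in IL-10-negative libraries. Only Il19 has groups that overlap, and among all genes tested 45.2% had groups without overlap.

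Il10 itself had 854, 840 and 851 CPM in the IL-10-producing libraries, against 13.0, 14.2 and 13.4 CPM in the IL-10-negative libraries. Sorting used the reporter of this very gene, and its values serve as a check of the labels and not as a finding. The level in IL-10-negative cells was 1.59% of that in IL-10-producing cells, and the gene took 0.0828% to 0.0846% of all counts in IL-10-producing and 0.00132% to 0.00143% in IL-10-negative libraries. Among the 10548 genes of at least 5 CPM, no other had a higher log2 fold change than Il10 (5.97).

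The cytokine gene Il24 had 56.2, 55.5 and 58.5 CPM in IL-10-producing libraries, against 18.0, 19.0 and 19.1 CPM in IL-10-negative libraries. Every IL-10-producing library lay far above every IL-10-negative library. IL-24 acts on cells that carry receptors of the IL-20 type and signals through STAT3. The log2 fold change was 1.60 (95% interval 1.51 to 1.69, adjusted p = 8.07e-20), the 33rd highest of the 16654 genes tested, and across 15 alternative analyses it lay between 1.54 and 1.62. Il24 was the only neighbour with a change of at least 2-fold, a size that 3.66% of all genes reached with a call, 0.739% as higher. Divided by transcript length, Il24 stood at 0.0728 to 0.0761 of Il10 in IL-10-producing and at 1.48 to 1.59 of Il10 in IL-10-negative libraries, so the transcript of Il24 was the more abundant of the pair in IL-10-negative cells.

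The third cytokine gene among the members, Il19, lies between Il24 and Il10 and was barely detected. It had 4, 8 and 5 counts in IL-10-producing libraries, against 5, 2 and 6 in IL-10-negative libraries. The groups overlapped. Summed, these were 17 counts in IL-10-producing cells (0.0994 CPM, exact 95% Poisson interval 0.0579 to 0.159) and 13 in IL-10-negative cells (0.0788, interval 0.0420 to 0.135). The ratio of IL-10-producing to IL-10-negative was 1.26, with an exact 95% counting interval of 0.577 to 2.82 that covers counting error only. The fold change of Il24 lies just outside this interval and that of Fcmr within it. Since the spread between libraries is left out, the interval excludes neither size of change for Il19. Without a filter on low counts, the adjusted p from edgeR was 0.816.

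Fcmr, next to Il24 on the far side from Il10, encodes the Fc receptor for IgM, found on lymphocytes, B cells among them. Its level was 8.66, 9.73 and 8.30 CPM in IL-10-producing libraries, against 4.52, 4.91 and 4.85 CPM in IL-10-negative libraries. The groups were well apart, although the spread within the IL-10-producing group (SD 0.747 CPM) was wider than within the IL-10-negative group (0.213 CPM). The log2 fold change was 0.91 (95% interval 0.72 to 1.09, adjusted p = 1.05e-08). Markers of B cells and plasma cells went both ways beside it. Of 9 tested, 3 rose (Ighm, Igkc and Jchain) and 5 fell, beside 17.1% and 18.6% of all genes tested. The summed level of the list was 50.8 to 52.5 CPM in IL-10-producing libraries, against 40.7 to 41.4 CPM in IL-10-negative libraries. Of the 3 that rose, Jchain stood at 1.73 ± 0.303 CPM in IL-10-producing libraries, against 0.152 ± 0.0377 CPM (SD, n = 3) in IL-10-negative libraries. Igkc stood at 6.38 ± 0.587 CPM in IL-10-producing libraries, against 2.01 ± 0.120 CPM in IL-10-negative ones. Ighm stood at 26.4 ± 0.564 CPM in IL-10-producing libraries, against 20.2 ± 0.866 CPM in IL-10-negative ones. Among the 5 that fell was Ms4a1, which encodes the B-cell surface protein CD20. Its level was 0.0896 ± 0.0164 CPM in IL-10-producing libraries, against 0.525 ± 0.212 CPM in IL-10-negative libraries. T-cell markers were lower, with Cd3e at 1.25 ± 0.0789 CPM in IL-10-producing libraries, against 8.19 ± 0.283 CPM in IL-10-negative libraries. Relative to its facing neighbour Il24, the ratio of CPM, with no correction for length, was 0.142 to 0.175 in IL-10-producing libraries, against 0.251 to 0.259 in IL-10-negative libraries. Whether reads past the end of Il24 entered the count of Fcmr was not tested.

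**Figure D2:**
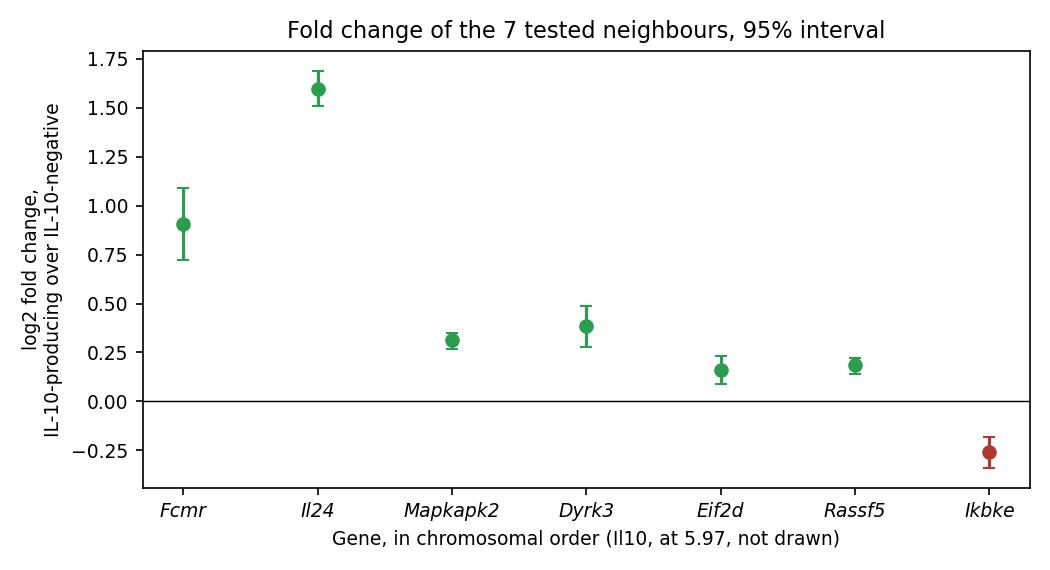
Log2 fold change, IL-10-producing over IL-10-negative, of the 7 tested neighbours in chromosomal order, with points for the estimates and bars for the 95% interval. Il24 (1.60) and Fcmr (0.91) stand above the 4 genes between 0.16 and 0.39, and Ikbke (-0.26) alone lies below 0.

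Mapkapk2 is the gene nearest to Il10 and encodes MK2, a kinase activated by p38 that phosphorylates RNA-binding proteins and so stabilises cytokine mRNAs. It was abundant in all libraries, with 573, 563 and 580 CPM in IL-10-producing and 467, 458 and 456 CPM in IL-10-negative libraries. The groups did not overlap, which was true of 45.2% of all genes tested. The log2 fold change was 0.31 (95% interval 0.27 to 0.35, adjusted p = 8.14e-13). An intronic transcript model inside the gene and on the same strand, listed as RP23-122P5.3 (Gm37084 in GENCODE M21), had 3.41 ± 0.354 CPM in IL-10-producing libraries, against 2.57 ± 0.159 CPM in IL-10-negative libraries (log2 fold change 0.41, adjusted p = 0.0175), and lost its call without the second IL-10-producing library (adjusted p = 0.117) or the second IL-10-negative library (0.063). It shares no annotated exonic base with Mapkapk2, and reads of unspliced Mapkapk2 RNA cannot be told apart from it.

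Dyrk3 encodes a dual-specificity kinase that acts in the dissolution of stress granules. It had 29.7, 29.1 and 27.8 CPM in IL-10-producing libraries, against 23.4, 20.8 and 22.2 CPM in IL-10-negative libraries. All 3 IL-10-producing libraries were higher than all 3 IL-10-negative ones, and the log2 fold change was 0.39 (95% interval 0.28 to 0.49, adjusted p = 9.17e-07). Eif2d, a factor in ribosome recycling and non-canonical initiation of translation, had 78.2, 77.8 and 76.9 CPM in IL-10-producing libraries, against 71.3, 71.1 and 66.3 CPM in IL-10-negative libraries. The gap was small but without overlap, with a log2 fold change of 0.16 (95% interval 0.09 to 0.23, adjusted p = 0.00026).

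Rassf5, also called RAPL, binds active RAP1 and the kinase MST1 and promotes adhesion through the integrin LFA-1 in lymphocytes. Its level was 350.0, 354 and 349 CPM in IL-10-producing libraries, against 310.0, 306 and 311 CPM in IL-10-negative libraries. The libraries of a group lay close together, and the log2 fold change was 0.18 (95% interval 0.14 to 0.22, adjusted p = 2.24e-08). The ratio of the CPM of Eif2d to that of its overlapping partner Rassf5, with no correction for length, was 0.220 to 0.224 in IL-10-producing libraries, against 0.213 to 0.233 in IL-10-negative libraries. The pair shares only 78 of the 7374 exonic bases annotated for Eif2d and of the 3997 for Rassf5.

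Ikbke, the farthest member, encodes IKK epsilon, a kinase that activates the interferon regulatory factors IRF3 and IRF7. It was the only neighbour that fell, with 38.1, 39.3 and 38.3 CPM in IL-10-producing libraries, against 47.2, 45.3 and 46.3 CPM in IL-10-negative libraries. No IL-10-producing library reached the lowest IL-10-negative library. The log2 fold change was -0.26 (95% interval -0.34 to -0.18, adjusted p = 3.58e-06).

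In a test against a change of 1.2-fold in place of 0, which was added after the data had been seen, 7.91% of all genes passed, 2.44% higher and 5.46% lower. Among the 7 neighbours Il24, Fcmr, Mapkapk2 (adjusted p = 0.0199) and Dyrk3 (0.0349) passed, and Eif2d, Rassf5 and Ikbke did not.

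Divided by the length of the longest protein-coding transcript, the members differed widely in level. In IL-10-producing cells, Il10 came first with 648 ± 5.94 CPM per kb, followed by Mapkapk2 with 197 to 203, Rassf5 with 101 ± 0.869 and Il24 with 48.0 ± 1.32 (SD, n = 3, a range for Mapkapk2). Eif2d, Ikbke, Dyrk3 and Fcmr followed between 23.4 and 5.56 CPM per kb, and Il19 was last with 0.0875. In IL-10-negative cells Mapkapk2 came first with 161 ± 2.11 CPM per kb, then Rassf5, Eif2d, Il24, Ikbke, Il10, Dyrk3, Fcmr and Il19. Il10 was the sixth in that order, with 10.3 ± 0.464 CPM per kb. No 2 genes next to each other in either order had overlapping libraries, and the closest pair was Il24 and Ikbke in IL-10-negative cells, with 15.2 CPM per kb in the lowest Il24 library and 14.5 in the highest Ikbke library. These ranks depend on the transcript chosen for the length.

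**Figure D3:**
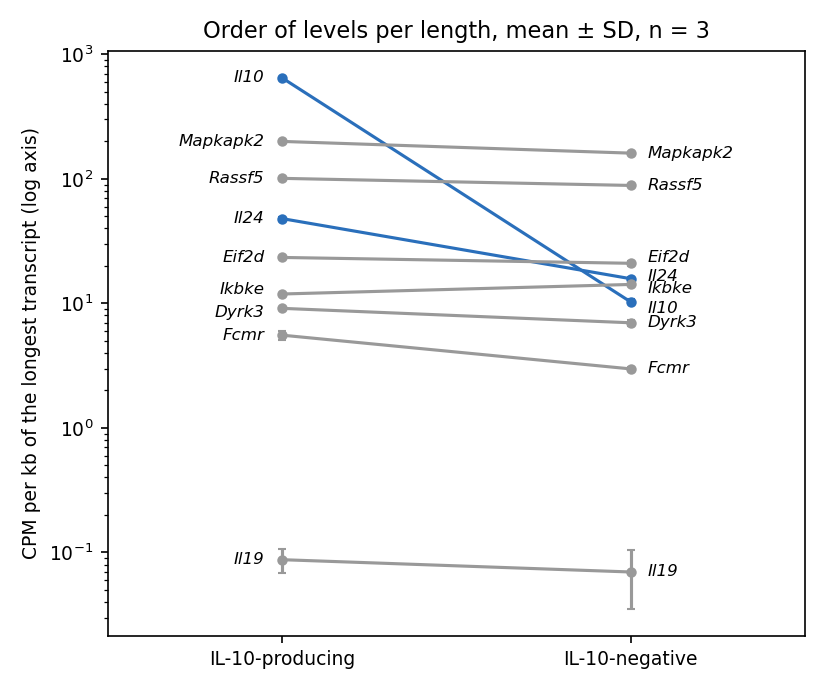
Mean CPM per kb of the longest transcript (log axis) of the 9 genes in IL-10-producing cells on the left and IL-10-negative cells on the right, with bars for the SD over 3 libraries and Il10 and Il24 in blue. Il10 is the first in IL-10-producing cells (648) and the sixth in IL-10-negative cells (10.3), and Il24 is the fourth in both.

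Farther from Il10, the direction of change was mixed. Of the 34 other genes with a row within 1000 kb, 30 were tested. Within 250 kb, 7 of 9 tested genes were higher and 1 lower, with a median log2 fold change of 0.39. That count holds the 7 neighbours, Gm37084 and the antisense gene Gm28913, which was not called (adjusted p = 0.523). Between 250 and 1000 kb, 4 of 21 tested genes were higher and 7 lower, with a median of 0.02. On the rest of chromosome 1, 18.6% of 1009 tested genes were higher, and 34.5% changed in either direction. No test set the near genes against the far ones, and several of the far genes had few counts, which limits a call. With at least 50 counts in 3 libraries, 19 of 21 tested genes within 1000 kb changed, 11 higher and 8 lower, Il10 counted. Under that filter 43.2% of all genes changed.

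The called genes with the largest absolute change within 1000 kb were Il10, Il24, Slc45a3, Fcmr and Cd55. Slc45a3, a solute carrier gene 938.0 kb from Il10, stood at 0.519 ± 0.146 CPM in IL-10-producing libraries, against 1.43 ± 0.257 CPM in IL-10-negative libraries (log2 fold change -1.49, adjusted p = 5.17e-05). Cd55 encodes decay-accelerating factor, a surface inhibitor of complement, and lies 557.1 kb before Il10. It fell to 3.18 ± 0.223 CPM in IL-10-producing cells, against 5.52 ± 0.419 CPM in IL-10-negative cells (log2 fold change -0.80, adjusted p = 2.03e-06). On the Fcmr side, Il24 and Fcmr were the only called genes other than Cd55 among 9 tested.

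**Figure D4:**
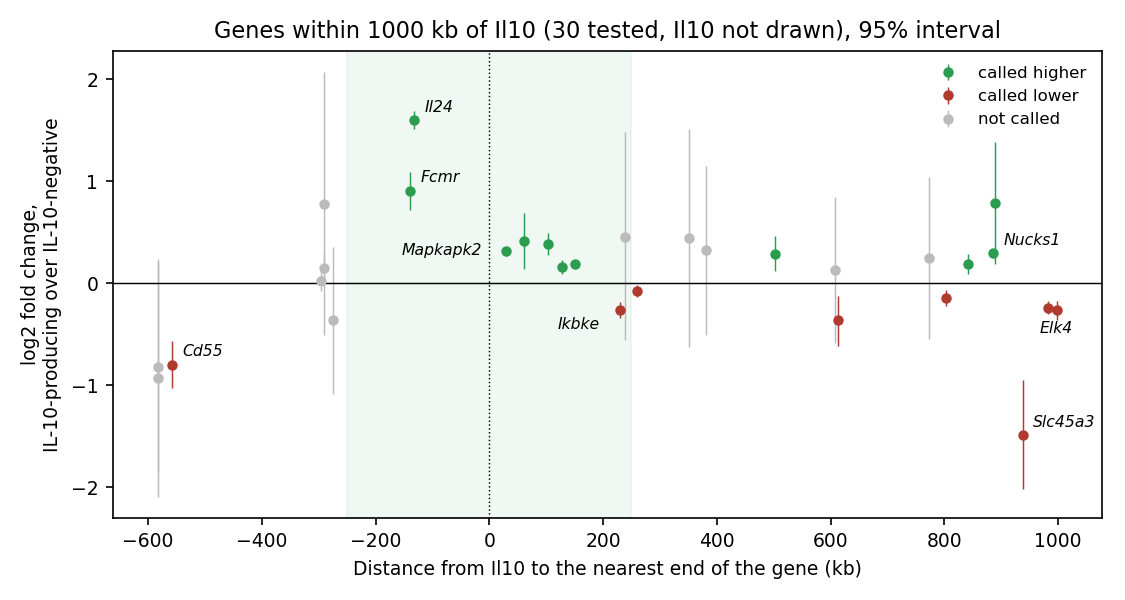
Log2 fold change, IL-10-producing over IL-10-negative, of the 30 tested genes within 1000 kb of Il10 against their distance in kb, with 95% intervals. Green points are called higher, red points lower and grey points not called. Shading marks the nearest 250 kb, where 7 of 9 are higher, against 4 of 21 beyond it and 17.1% of all genes tested. Among all genes of at least 5 CPM in the higher group, 24.1% were higher. The 7 include Gm37084, which lies inside Mapkapk2 and cannot be told apart from its unspliced RNA. Several of the genes beyond 250 kb had few counts, which limits a call.

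The genes whose pattern over the 6 libraries was most like that of Il24 were Cdh17, Igkc, Gem, Akap6 and Amot. Likeness was the root mean square difference between profiles of log2(CPM + 0.5), each centred on its own mean, among the genes of at least 5 CPM. It was 0.0783 for Cdh17, which encodes a cadherin and had 12.2 ± 1.01 CPM in IL-10-producing libraries, against 3.51 ± 0.188 CPM in IL-10-negative libraries. For Igkc, the kappa light chain constant gene and also a B-cell marker above, it was 0.0970, and for Gem, a small GTPase, 0.0987. Akap6, an anchor of protein kinase A (0.188), and Amot, angiomotin (0.208), followed. The 5 genes nearest to Il10 were Gzma, Cdh17, Il24, Gem and Igkc, all far from it, with differences of 1.55 to 2.23. With 2 groups of 3 libraries, likeness mostly measures a similar fold change.

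Of the 14 genes listed as IL-10 family cytokines and receptor chains, 7 had a row and 6 were tested, and the 7 others were not analysed here. Il10ra, the ligand-binding chain for IL-10, fell to 201 ± 1.32 CPM in IL-10-producing cells, against 232 ± 4.04 CPM in IL-10-negative cells (log2 fold change -0.20, adjusted p = 1.85e-08). Il10rb, the shared second chain, stood at 35.5 ± 0.289 CPM in IL-10-producing cells, against 43.8 ± 2.24 CPM in IL-10-negative cells (adjusted p = 1.63e-06). Il20ra (0.309 ± 0.110 CPM in IL-10-producing cells, against 0.261 ± 0.216 CPM in IL-10-negative cells) and Il20rb (3.15 ± 0.480 CPM in IL-10-producing cells, against 2.91 ± 0.191 CPM in IL-10-negative cells) did not pass the test.

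Of 13 tested genes of IL-10 receptor signalling, 8 fell and 2 rose, with a median log2 fold change of -0.09. Beside this and the list counts below, 18.6% of all genes tested fell and 17.1% rose. The smallest p belonged to Nfil3, a leucine zipper factor, at 356 ± 5.68 CPM in IL-10-producing cells, against 279 ± 3.38 CPM in IL-10-negative cells. Next came Etv3, a transcriptional repressor, at 61.3 ± 2.30 CPM in IL-10-producing cells, against 80.0 ± 3.92 CPM in IL-10-negative cells, and the kinase gene Jak1, at 514 ± 6.24 CPM in IL-10-producing cells, against 585 ± 9.30 CPM in IL-10-negative cells. Socs3, a feedback inhibitor induced by STAT3, was the other gene that rose (517 ± 10.6 CPM in IL-10-producing cells, against 481 ± 6.13 CPM in IL-10-negative cells). Stat3 did not pass, at 417 ± 6.04 CPM in IL-10-producing cells, against 430.0 ± 3.72 CPM in IL-10-negative cells (adjusted p = 0.0899), but was called lower with library size as the only scaling (adjusted p = 0.00286). The receptor genes Il10ra and Il10rb are among the 8.

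Around Mapkapk2, the p38 and MK2 list had 5 of 16 other genes higher and 3 lower (median 0.00). With library size only, the split including Mapkapk2 was 5 higher and 5 lower. RNA-binding proteins of this list changed in both directions. Zfp36l2 rose by 0.33 on the log2 scale, to 443 ± 11.9 CPM in IL-10-producing cells, against 353 ± 5.41 CPM in IL-10-negative cells. Zfp36, which encodes tristetraprolin, a substrate of MK2 that promotes decay of cytokine mRNAs, rose to 142 ± 4.13 CPM in IL-10-producing cells, against 108 ± 2.16 CPM in IL-10-negative cells. Zfp36l1 fell to 74.7 ± 1.33 CPM in IL-10-producing cells, against 116 ± 0.981 CPM in IL-10-negative cells (log2 fold change -0.63). The close relative Mapkapk3 fell slightly (183 ± 4.41 CPM in IL-10-producing cells, against 197 ± 2.64 CPM in IL-10-negative cells, log2 fold change -0.10). Mapk14, the main p38 gene, did not pass, at 130.0 ± 1.16 CPM in IL-10-producing cells, against 127 ± 0.675 CPM in IL-10-negative cells.

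For Ikbke, the list of IKK-related kinases, adaptors and targets had 1 of 13 other genes higher and 6 lower (median -0.05). With library size only, 0 genes of the list were higher and 7 lower, Ikbke counted. Without the third IL-10-producing or the third IL-10-negative library, 0 were higher and 6 lower. Irf7, a target of the kinase, fell to 6.02 ± 0.242 CPM in IL-10-producing cells, against 9.87 ± 0.213 CPM in IL-10-negative cells (log2 fold change -0.72). Tbkbp1, an adaptor of TBK1, was at 0.105 ± 0.102 CPM in IL-10-producing cells, against 0.865 ± 0.0882 CPM in IL-10-negative cells. Tbk1, the nearest relative of Ikbke, did not pass, at 105 ± 1.55 CPM in IL-10-producing cells, against 105 ± 0.660 CPM in IL-10-negative cells (adjusted p = 0.962).

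With Rassf5, 5 of 19 other genes of the RAP1, MST1 and LFA-1 list rose and 6 fell (median -0.02). Rap1b, a RAP1 GTPase gene, rose to 550.0 ± 15.7 CPM in IL-10-producing cells, against 473 ± 8.06 CPM in IL-10-negative cells. Apbb1ip, which encodes RIAM, another RAP1 effector, fell to 44.4 ± 0.579 CPM in IL-10-producing cells, against 78.9 ± 2.49 CPM in IL-10-negative cells (log2 fold change -0.83). With library size only, 6 genes of the list with Rassf5 were higher and 9 lower. Stk4, which encodes MST1, fell by 0.09 on the log2 scale (adjusted p = 0.000507).

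All 16 tested genes of the list of DYRK and CLK kinases and EIF2D relatives changed, 8 in each direction. Of all genes tested 35.7% changed, and of those of at least 5 CPM in the higher group 47.2%. When 1 library was left out, 13 to 15 genes of the list changed. Dyrk3 was the only kinase of the 8 tested that rose. Dyrk1b fell to 4.56 ± 0.491 CPM in IL-10-producing cells, against 8.13 ± 0.532 CPM in IL-10-negative cells, and Dyrk2 to 12.2 ± 0.181 CPM in IL-10-producing cells, against 19.2 ± 0.799 CPM in IL-10-negative cells. Of the 8 translation genes, 7 rose, all by less than 0.17 on the log2 scale, among them Denr (67.3 ± 1.46 CPM in IL-10-producing cells, against 61.1 ± 3.37 CPM in IL-10-negative cells) and Mcts1, whose products act as a pair related to EIF2D. With library size only, 6 genes of the list were higher and 8 lower, and Mcts1 lost its call (adjusted p = 0.079), as it did without the third IL-10-producing (0.0738), the first IL-10-negative (0.0762) or the third IL-10-negative library (0.179). Mcts2, a retrocopy of Mcts1, fell (2.79 ± 0.430 CPM in IL-10-producing cells, against 3.74 ± 0.197 CPM in IL-10-negative cells), lost its call without the first IL-10-producing (adjusted p = 0.112) or the first IL-10-negative library (0.0535), and its likeness to Mcts1 makes both values uncertain.

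Fcmr differed in direction from the other Fc receptor genes tested. Of 12 listed genes 7 had a row and 5 were tested, and the 4 other than Fcmr fell, as did 18.6% of all genes tested. Fcgr2b, the inhibitory receptor for IgG, was at 0.214 ± 0.0426 CPM in IL-10-producing cells, against 2.88 ± 0.303 CPM in IL-10-negative cells (log2 fold change -3.71), and Fcgr3 at 0.382 ± 0.0666 CPM in IL-10-producing cells, against 1.90 ± 0.342 CPM in IL-10-negative cells. Fcer1g and Fcer1a were the other 2, and Fcer1a is also on the mast cell list. Such receptors are carried by mast cells, of whose markers 8 of 8 were lower, and by macrophages and dendritic cells, of whose markers 4 of 9 were lower and 1, Cd68, higher. The part of such cells was not tested.

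**Figure D5:**
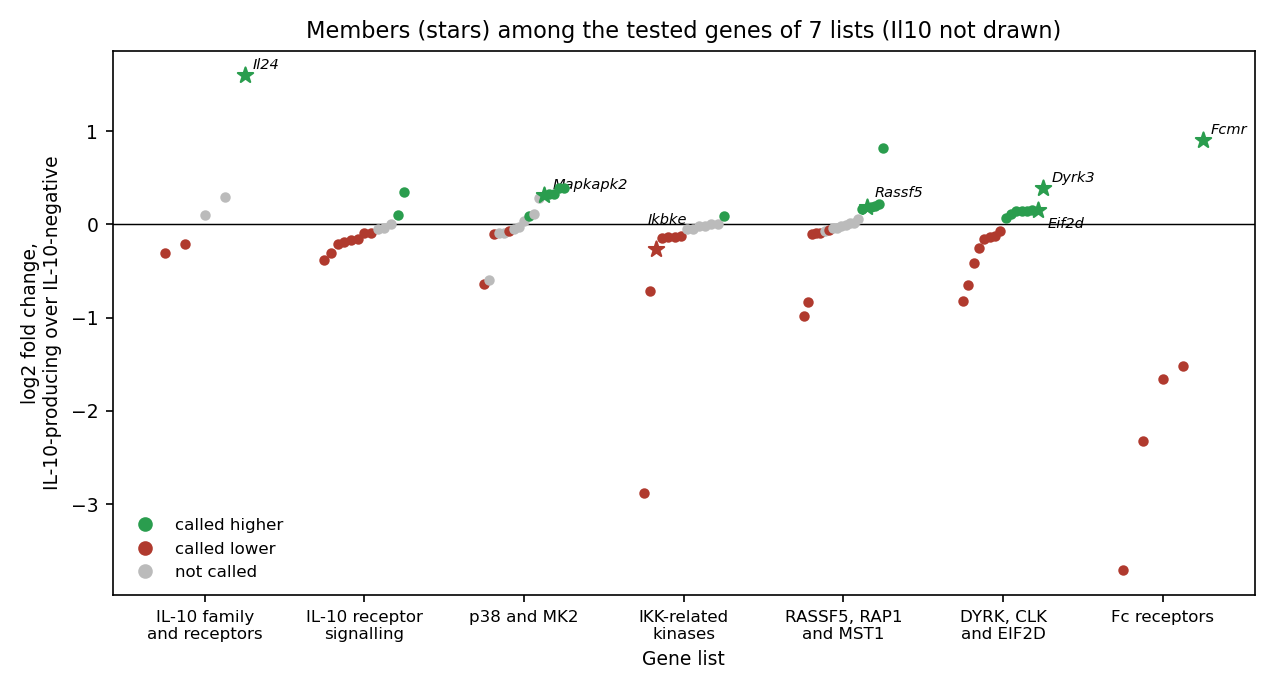
Log2 fold change, IL-10-producing over IL-10-negative, of the tested genes of 7 lists other than Il10, with stars for the members and points for the other genes, green where called higher, red where called lower and grey where not called. In the Fc receptor list Fcmr (0.91) is the only gene above 0, and in the IKK-related list Ikbke (-0.26) lies among 6 other genes called lower.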

How the data were processed

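Total RNA was sequenced in 6 libraries. The submitters' processing notes name STAR 2.5.3a, Partek, bcl2fastq 2.17.1.14 and the build mm10. The authors deposited estimated counts per gene from the Partek E/M model, per the file name, not normalized between libraries; 50.1% of values were not whole, and the smallest gene total was 10. The authors also deposited a normalized signal table of 13824 genes, in which 100% of values equalled the estimated count plus 1 times a factor per library (tolerance 1%). No source used here gives the annotation release. GENCODE M21 held 19917 of the genes under the same identifier, all at the same position after 1 was subtracted from the listed stop.

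Estimated counts were rounded and tested with edgeR 4.0.16 (R 4.3.3), TMM factors and filterByExpr (minimum count 10, minimum total 15), with group as the only term; 16654 genes were kept. Standard errors were the log2 fold change over the root of F, and intervals used its t distribution. No library was a copy of another, since the chi-square between replicates was 2.39 to 2.96 times that of Poisson counting alone (median over genes). Alternatives were other scalings and filters, DESeq2 1.42.0, limma-voom and limma 3.58.1 on log2 of the normalized table plus 1, the replicate number as a block, leaving out each library, and, added later, glmTreat with a 1.2-fold minimum.

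The members and lists were chosen with earlier results of these data known. Named were the members, the 5 genes most like Il10 and Il24, genes within 250 kb, the 5 largest changes within 1000 kb and, per list, the 3 smallest p. Il10rb, Socs3, Zfp36, Mapkapk3, Stk4, Mcts1, Mcts2, Denr and the markers were singled out after their values were seen. Results of some genes are left out here.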

Additional observations from a re-analysis of the deposited data

How the results depend on the processing

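Of 120 recomputed member values, 117 kept their direction and side of the threshold, none turned, and 3 lost the call, all in the test against a change of 1.2-fold, where Eif2d, Rassf5 and Ikbke had an adjusted p of 1. The 7 called neighbours were 7 in each of the other 14 alternatives, and 4 against 1.2-fold. Without each library in turn, 5232 to 5519 of all genes and 17 to 19 of those within 1000 kb changed (5943 and 20 with all libraries, Il10 counted). Against 1.2-fold, 1317 of all genes and 7 within 1000 kb changed. In that test the lists fell to 2 genes (IL-10 family), 2 (IL-10 signalling), 4 (p38 and MK2), 2 (IKK-related), 3 (RASSF5) and 3 (DYRK and EIF2D), since a larger change is asked for. The correlation of deviations between libraries of the same replicate number was -0.0479 to -0.0234, which gave no sign of pairing by number. It cannot show whether such libraries share a mouse or culture. With the replicate number as a block, 5817 genes and the same count of 7 neighbours changed. No scaling moved the median of all genes by 0.1 on the log2 scale; the lowest was -0.034, with library size only. Depth limits Il19, with 30 counts in all. Of 40 genes named beside the members, none turned, and 12 lost their call against 1.2-fold. The other lost or gained calls, of Gm37084, Mcts1, Mcts2 and Stat3, stand beside their values above.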

Other observations

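Gem and Cdh17, among the 5 genes most like both Il10 and Il24, are themselves neighbours on chromosome 4, with 43.4 kb between them. This was looked at after the likeness values were seen. Gem (chr4:11704457-11714752) had 30.5 ± 1.25 CPM in IL-10-producing libraries, against 9.92 ± 0.712 CPM in IL-10-negative libraries (log2 fold change 1.63, adjusted p = 4.07e-17, edgeR), and Cdh17 (chr4:11758147-11817895) a log2 fold change of 1.79 (adjusted p = 2.90e-14). Of the 6 other tested genes within 250 kb of the pair, 3 were higher and 0 lower, beside 17.1% and 18.6% of all genes tested. The median log2 fold change of the 6 was 0.10. The smallest change among the 3 was 0.07 on the log2 scale, of RP23-242O9.1. One of the 3, the transcript model RP23-203A12.2, rose with a log2 fold change of 1.55 (95% interval 0.51 to 2.59, adjusted p = 0.0181), at 0.264 ± 0.0825 CPM in IL-10-producing libraries, against 0.0905 ± 0.0199 CPM in IL-10-negative libraries. The nearest tested protein-coding genes on each side had smaller values, Rad54b a log2 fold change of 0.20 (adjusted p = 0.00477) and Pdp1 one of -0.01 (adjusted p = 0.916).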
